A study of Mus musculus with 14 samples.

Results

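The 9 genes described here, of 55487 gene entries in the count table, are the aryl hydrocarbon receptor Ahr, its repressor Ahrr, its dimer partner Arnt, its cochaperone Ptges3 and the established targets Tiparp, Lpxn, Xdh, Cyp1b1 and Ugt1a7c. They were chosen by name, through their Ensembl identifiers, with earlier results of these data known. Of the 9 genes, 8 had enough counts to be tested, and Cyp1b1 did not. Messenger RNA came from monocytes isolated from mouse bone marrow and kept in culture for 3 h. Wild-type cells in medium and wild-type cells with 20 ng/mL of IL-4 had 4 libraries each (numbers 1, 2, 3 and 7). Cells from mice labelled as deficient for AhR had 3 libraries in medium and 3 with the same dose of IL-4 (numbers 4, 5 and 6). IL-4 is a cytokine of type 2 immunity that drives alternative activation of monocytes and macrophages. The labels do not give the allele or promoter behind the deficiency, the strain, the age, or whether a library came from 1 animal or a pool, so "AhR-deficient" stands below for the label of the library, and p-values measure the spread between these libraries, which may be technical in part.

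AhR is a ligand-activated transcription factor of the bHLH-PAS family. Without ligand it rests in the cytoplasm in a complex with HSP90 and the cochaperone p23 (encoded by Ptges3). Ligands, among them dioxins, indoles from diet and microbes and tryptophan metabolites, send it to the nucleus, where it pairs with ARNT and binds DNA at elements with the core GCGTG. Its targets include genes of xenobiotic metabolism (Cyp1a1, Cyp1b1, Nqo1) and feedback inhibitors (Ahrr, Tiparp). In myeloid cells AhR is known for roles in inflammatory gene control and in the choice between monocyte fates.

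The libraries held 33432502 to 42885079 counts. All 8 monocyte markers examined were present in every group, with summed levels (medians, in CPM, counts scaled for library size) of 22468.3 and 13312.9 CPM in wild-type cells without and with IL-4, and of 21850.7 and 12916.7 CPM in AhR-deficient cells. Lyz2, the lysozyme gene, carried most of this sum (16719.5 ± 1621.5 CPM in the wild-type medium group, n = 4). Of the other markers in medium, Ccr2 had a lower mean in AhR-deficient than in wild-type libraries (380.7 against 1277.4 CPM), as did Itgam (169.6 against 198.1), while Ly6c2 (1079.1 against 814.4), Csf1r (2463.3 against 2013.0), Cx3cr1 (812.3 against 742.5), Fcgr1 (48.5 against 32.1) and Cd14 (591.8 against 376.6) had higher ones. Summed B cell markers stayed at or below 3.66 CPM and summed T and NK cell markers at or below 4.14 CPM in every library. Markers of neutrophils summed to 304.0 to 687.8 CPM in wild-type and 297.8 to 504.0 CPM in AhR-deficient libraries in medium, and to 331.0 to 603.2 against 278.7 to 444.2 CPM in IL-4. Markers of eosinophils and basophils summed to 71.9 to 219.9 against 31.6 to 117.0 CPM in medium and to 57.3 to 243.7 against 29.3 to 103.2 CPM in IL-4, with no defining marker of either list at 0 in every library of a group. Xist, the RNA of the silenced X chromosome, was at 987.2 CPM or more in every AhR-deficient library and at 2.12 CPM or less in every wild-type library, whereas Ddx3y, Kdm5d and Uty on the Y chromosome had 0 counts in every AhR-deficient library. Sex and genotype therefore cannot be told apart in any genotype comparison below.

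Promoter sequences of 7 of the 9 genes were in the RefSeq table of GRCm38.p6, in windows of 250 bases before to 50 bases after the start; Ahr and Xdh were not among them. The 4 shown are the repressor, the target with the largest fold change among the tested members, the cytochrome that was nearly silent without IL-4, and the target without a core match. They run 5′ to 3′ over the 250 bases before the start, with GCGTG or its reverse complement in capitals. The start is that of RefSeq: for Ugt1a7c the window ends at 88095000, upstream of the GENCODE gene start at 88095062, and, unlike for the other 6 genes, the end of the 300-base window was in no GENCODE transcript. Ahrr is chr13:74292332-74292581 (minus strand), Lpxn is chr19:12795943-12796192 (plus strand), Cyp1b1 is chr17:79715062-79715311 (minus strand) and Ugt1a7c is chr1:88094751-88095000 (plus strand).
Ahrr: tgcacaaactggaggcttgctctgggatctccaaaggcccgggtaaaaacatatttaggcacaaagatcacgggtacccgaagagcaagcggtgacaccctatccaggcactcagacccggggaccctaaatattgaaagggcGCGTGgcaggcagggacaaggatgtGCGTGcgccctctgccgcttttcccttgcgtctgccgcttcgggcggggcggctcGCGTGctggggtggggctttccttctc
Lpxn: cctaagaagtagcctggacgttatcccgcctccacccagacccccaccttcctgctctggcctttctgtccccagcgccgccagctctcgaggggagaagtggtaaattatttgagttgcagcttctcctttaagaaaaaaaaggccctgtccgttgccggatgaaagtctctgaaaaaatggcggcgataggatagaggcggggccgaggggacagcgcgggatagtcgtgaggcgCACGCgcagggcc
Cyp1b1: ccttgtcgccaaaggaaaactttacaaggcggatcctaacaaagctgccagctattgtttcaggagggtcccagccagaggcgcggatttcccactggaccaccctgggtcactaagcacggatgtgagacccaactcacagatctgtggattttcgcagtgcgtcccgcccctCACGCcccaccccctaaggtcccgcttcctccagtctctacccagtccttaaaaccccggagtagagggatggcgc
Ugt1a7c: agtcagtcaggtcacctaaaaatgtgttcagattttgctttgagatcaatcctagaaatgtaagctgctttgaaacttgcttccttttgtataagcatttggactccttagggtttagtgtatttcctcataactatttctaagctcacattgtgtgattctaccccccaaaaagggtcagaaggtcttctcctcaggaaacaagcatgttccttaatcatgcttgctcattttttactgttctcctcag

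GCGTG, searched on both strands, occurred 3 times in the Ahrr window, 2 times in that of Ptges3, once each in those of Arnt, Tiparp, Lpxn and Cyp1b1, and not in that of Ugt1a7c. Of 32851 promoter windows of the same length, 32.4% held the core at least once and 3.91% held it 3 or more times. The longer element TNGCGTG, which contains the core, was found in the window of Ahrr and in none of the other 6, against 5.07% of all windows. Neither ACGTG, the core used by ARNT with the HIF proteins (19.6% of all windows), nor a STAT6-type palindrome of TTC, any 4 bases and GAA (6.95% of all windows) was found in any of the 7. The Ugt1a7c window was also the poorest in G and C of the 7 (40% against a median of 52.7% over all windows), and the window of Tiparp, with 1 match, and that of Ptges3, with 2, were the richest (73.7% each). Matches describe the letters of these windows and show no binding.

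In wild-type cells 4 of the 8 tested members rose with IL-4 (Ahr, Ahrr, Lpxn and Xdh) and 2 fell (Tiparp and Ugt1a7c), where 35.9% of all 14754 genes tested were called in either direction, 19.4% up and 16.5% down. In AhR-deficient cells 3 rose (Ahr, Lpxn and Xdh), none fell and 5 did not pass, against 29.5% of all genes called (15.4% up, 14.2% down). The libraries of the groups compared were apart, with no overlap, for 4 members higher and 2 lower with IL-4 in wild type (18.4% and 14.9% of all genes) and for 5 higher and 1 lower in AhR-deficient cells (22.3% and 21.4%). Between genotypes they were apart for 2 members higher and 2 lower in medium (10.5% and 9.45% of all genes) and for 2 higher and 3 lower in IL-4 (9.28% and 8.91%). The median log2 fold change of the 8 members was 0.50 in wild type and 0.33 in AhR-deficient cells, with medians of 0.01 and -0.01 over all genes. Between genotypes, 1 member was higher and 2 were lower in AhR-deficient cells in medium (8.11% of all genes called, 4.16% up and 3.95% down), and 1 was higher and 1 lower in IL-4 (1.62% called, 0.956% up and 0.664% down). No member, and no gene, passed in the test of whether genotype altered the IL-4 response (edgeR, 0.00% called, 558 genes at an unadjusted p under 0.05; DESeq2 called 3 genes, none of them a member). Calls are at an adjusted p under 0.05 in edgeR's quasi-likelihood test over all genes.

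**Figure D1:**
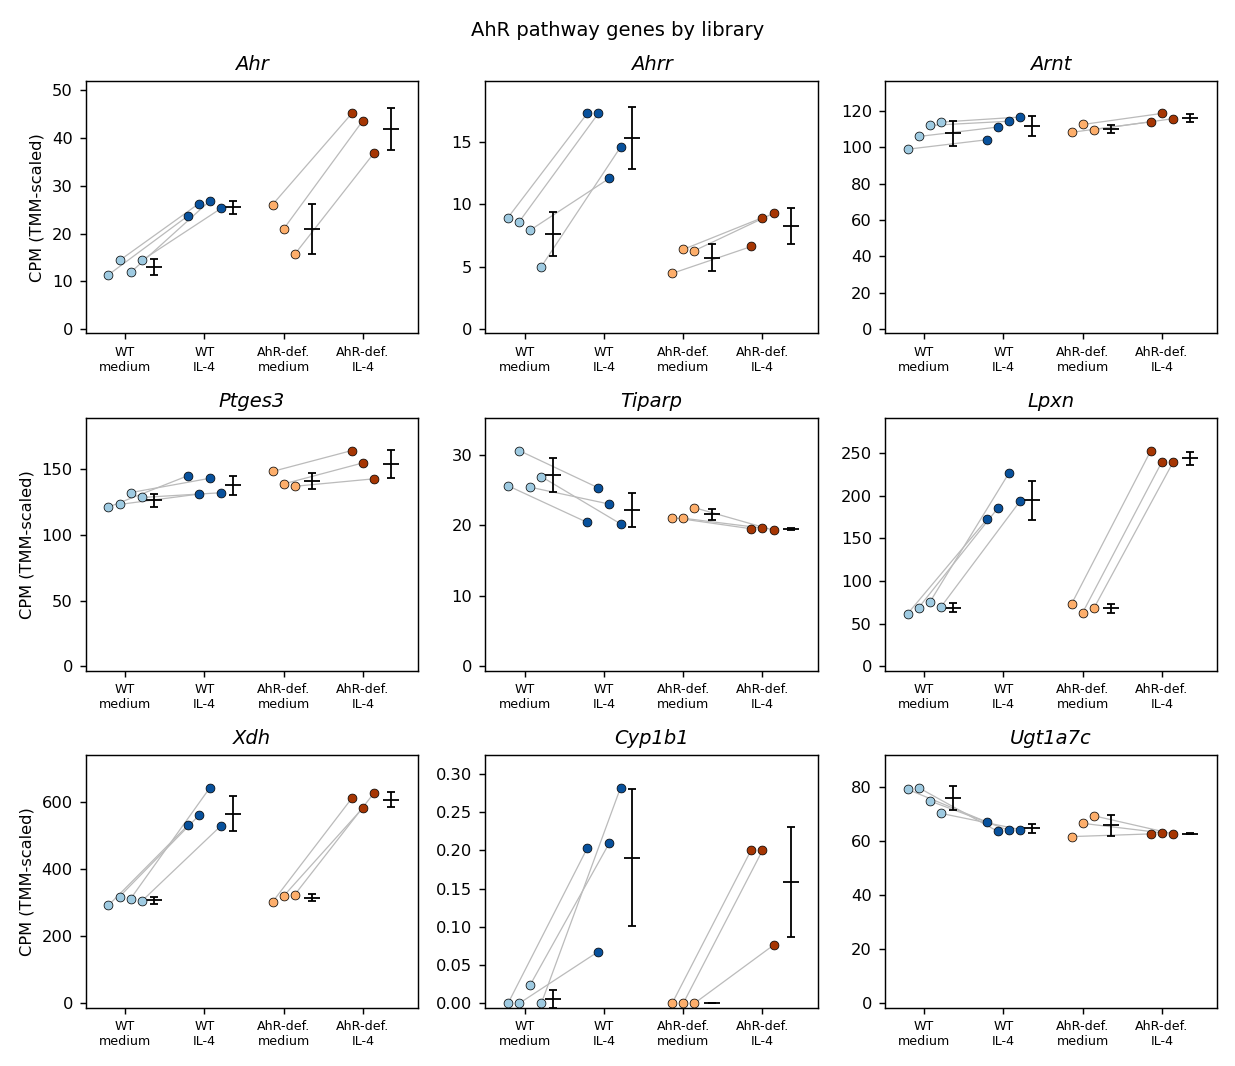
Level of each of the 9 genes in CPM (vertical axes, from 0) in every library of the 4 groups, with the group mean ± SD as black bars and grey lines joining libraries of the same number. Ahr, Ahrr, Lpxn, Xdh and Cyp1b1 stood higher with IL-4 in every number of both genotypes, as did Arnt, within a range of 98.9 to 118.6 CPM, and Ptges3. The lower SD bar of Cyp1b1 in wild type in medium ends at the axis.

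The receptor gene Ahr (ENSMUSG00000019256.17) lies on the minus strand of GRCm38 chromosome 12, from 35497974 to 35535038. In number order, wild-type libraries had 11.4, 14.4, 11.9 and 14.4 CPM in medium and 23.7, 26.3, 26.9 and 25.3 CPM in IL-4. AhR-deficient libraries had 26.1, 21.0 and 15.7 CPM in medium and 45.2, 43.7 and 36.9 CPM in IL-4. Ahr RNA was thus present in all 14 libraries, and its level in the lowest AhR-deficient library in medium was above the highest wild-type one. The counts are summed over the whole gene, so they do not show whether an exon is missing and do not check the label at the level of the protein.

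Ahr rose 1.96-fold with IL-4 in wild type (log2 0.97 ± 0.13 SE, 95% interval 0.69 to 1.26, adjusted p = 5.05e-05) and 2.0-fold where AhR was deficient (1.0 ± 0.15, 0.68 to 1.32, adjusted p = 1.54e-04). Within single numbers the fold ran from 1.73 (number 4) to 2.35 (number 6), and the 2 responses differed by 0.03 ± 0.20 on the log2 scale (interval -0.40 to 0.46). AhR-deficient cells had 1.61-fold more Ahr RNA in medium (0.69 ± 0.14, interval 0.38 to 0.99, adjusted p = 0.0144) and 1.64-fold more in IL-4 (0.71 ± 0.14, interval 0.42 to 1.01, adjusted p = 0.0270). The AhR-deficient libraries in medium spread more than those of the other groups, with a coefficient of variation of 25.0% against 12.3% in wild type in medium. Without AhR-deficient number 4 the difference in medium was 0.49 (adjusted p = 0.0889), and the call in IL-4 was lost without wild-type number 1, 2 or 7 or AhR-deficient number 4 or 5 (0.66 to 0.80 over the 7 fits without 1 library). With a granulocyte marker score as a covariate the difference in IL-4 was 0.80 (adjusted p = 0.0568). In bulk RNA, fewer cells that express a gene and less of its RNA per cell cannot be told apart, here and for each gene below.

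The genes around Ahr were examined for the same contrasts. The 5 nearest tested genes on each side (Gm48137, Snx13, Hdac9, Twistnb and Atxn7l1 at lower, Gm48236, Tspan13, Bzw2, Ankmy2 and Ispd at higher coordinates) lie up to 2256.1 kb away by their midpoints. None of the 10 passed in either genotype comparison, where 8.11% of all genes were called in medium and 1.62% in IL-4. Ankmy2 came nearest, at -0.42 ± 0.14 in medium (adjusted p = 0.0769), with AhR-deficient libraries all below wild-type ones. Gm48236 shares 127 exon bases with Ahr on the opposite strand, 2.06% of the exon length of Ahr, and it differed by 0.19 ± 0.89 in medium and -0.26 ± 0.53 in IL-4.

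The genes whose log2 CPM followed Ahr most closely over the 14 libraries, among 10542 genes, were Eif1a (Pearson r = 0.9673), which encodes a translation initiation factor, Kif1a (r = 0.9604), which encodes a kinesin motor, and Csf3r (r = 0.9517), the receptor for the granulocyte growth factor G-CSF. These coefficients are descriptions over libraries that share the same 4 groups. Csf3r had 387.1 ± 37.8 CPM without and 551.3 ± 62.9 CPM with IL-4 in wild-type libraries, and 509.4 ± 28.9 and 675.9 ± 40.2 CPM in AhR-deficient ones. Like Ahr, all 3 genes had their highest mean in AhR-deficient cells in IL-4 and their lowest in wild type in medium. They were picked for likeness to Ahr over these same libraries, so this shared order is no separate result.

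The repressor gene Ahrr (ENSMUSG00000021575.16, chromosome 13, 74211118 to 74292331, minus strand) encodes a bHLH-PAS protein that competes with AhR for ARNT and is itself an AhR target. Wild-type libraries had 8.95, 8.60, 7.94 and 5.01 CPM in medium and 17.3, 17.3, 12.1 and 14.6 CPM in IL-4. AhR-deficient libraries had 4.47, 6.39 and 6.29 CPM in medium and 6.63, 8.94 and 9.29 CPM in IL-4. The genotypes overlapped in medium, through wild-type number 7, and were fully apart in IL-4. With IL-4, AhR-deficient libraries reached levels close to those of wild-type libraries in medium.

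Ahrr rose 2.01-fold with IL-4 in wild type (1.01 ± 0.18, interval 0.62 to 1.40, adjusted p = 5.99e-04). In AhR-deficient cells the change was 0.54 ± 0.22 (interval 0.07 to 1.0, adjusted p = 0.0802), and it passed with the numbers as a block (0.54 ± 0.14, adjusted p = 0.0138). The fold within numbers was 1.40 to 1.48 in the 3 AhR-deficient pairs and 1.53 to 2.91 in the 4 wild-type pairs, so the 2 sets of folds did not overlap, but the difference between the responses did not pass (-0.47 ± 0.28, adjusted p = 1.0; with the block -0.48 ± 0.19, adjusted p = 0.543). In IL-4, AhR-deficient cells had 0.541 times the wild-type level (-0.89 ± 0.20, interval -1.31 to -0.46, adjusted p = 0.0438). In medium the difference was -0.42 ± 0.20 (interval -0.85 to 0.02, adjusted p = 0.212). The call in IL-4 was lost in 6 of the 7 fits without 1 library, all but the one without wild-type number 3 (adjusted p of 0.0329 to 0.187 over the 7), and with the granulocyte marker score as a covariate (-0.76, adjusted p = 0.197).

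Set against the receptor, Ahrr reads per 100 Ahr reads, a ratio chosen after the values were seen, were 78.6, 59.7, 66.7 and 34.9 in wild type in medium and 72.9, 65.7, 45.1 and 57.9 in wild type in IL-4. They were 17.1, 30.5 and 40.1 in AhR-deficient cells in medium and 14.7, 20.5 and 25.2 in IL-4. Wild-type and AhR-deficient libraries overlapped in this ratio in medium, again through wild-type number 7, and not in IL-4. The genes closest to Ahrr in pattern were Cd109 (r = 0.9602), a membrane-anchored surface protein, Rbfa (r = 0.9504), a factor of mitochondrial ribosome assembly, and Exoc3 (r = 0.946), a subunit of the exocyst. Exoc3 is also the neighbour of Ahrr on chromosome 13, at 74169488 to 74208732, 2385 bases away. As for Ahr, the genes closest to Ahrr were picked for likeness over these same libraries, so their shared pattern is no separate result. Exoc3 itself had 119.0 ± 7.53 CPM without and 146.7 ± 2.41 CPM with IL-4 in wild-type libraries, and 102.0 ± 9.23 and 127.0 ± 7.45 CPM in AhR-deficient ones.

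Of the partners, Arnt (ENSMUSG00000015522.18, chromosome 3, 95434388 to 95497240, plus strand) encodes the partner that AhR, and also the HIF proteins, need to bind DNA. Wild-type libraries had 98.9, 105.9, 112.0 and 113.8 CPM in medium and 104.1, 111.1, 114.3 and 116.6 CPM in IL-4. AhR-deficient libraries had 108.2, 112.5 and 109.7 CPM in medium and 114.0, 118.6 and 115.7 CPM in IL-4. Arnt was higher with IL-4 in every number, by 1.02 to 1.05-fold, and the AhR-deficient libraries with and without IL-4 were apart, but no comparison of Arnt passed. The intervals were -0.06 to 0.16 and -0.05 to 0.20 for the IL-4 responses in wild type and AhR-deficient cells, and -0.08 to 0.15 and -0.06 to 0.17 for the genotype differences in medium and IL-4, the narrowest intervals, with those of Ugt1a7c, in the set.

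Ptges3 (ENSMUSG00000071072.12, chromosome 10, 128058954 to 128077272, plus strand) encodes p23, which stabilises the HSP90 complex. Wild-type libraries had 121.1, 123.1, 132.1 and 128.4 CPM in medium and 144.9, 131.0, 143.0 and 132.0 CPM in IL-4. AhR-deficient libraries had 148.2, 138.7 and 136.9 CPM in medium and 164.1, 154.7 and 142.6 CPM in IL-4. Every number was higher with IL-4, by 1.03 to 1.20-fold, but the responses of 0.13 ± 0.05 in wild-type and 0.12 ± 0.06 in AhR-deficient libraries did not pass (adjusted p = 0.0870 and 0.171). With the numbers as a block the wild-type response passed (adjusted p = 0.0375) and the other did not (adjusted p = 0.0841). Ptges3 differed between genotypes by 0.16 ± 0.06 in medium (adjusted p = 0.0957) and by 0.16 ± 0.06 in IL-4 (adjusted p = 0.169), neither of which passed, although the libraries in medium were apart.

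**Figure D2:**
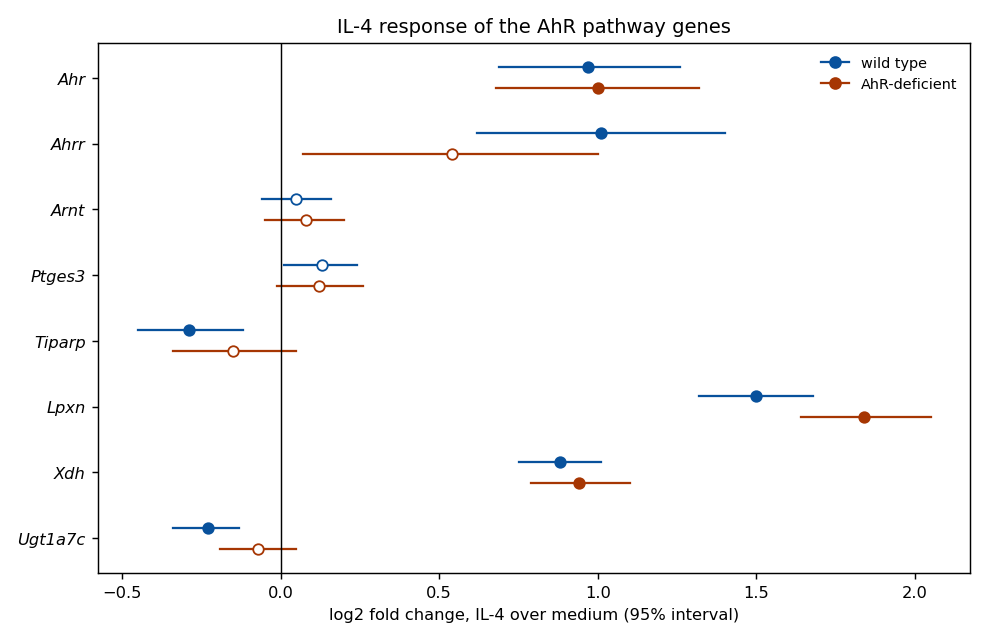
Log2 fold change with IL-4 (horizontal axis) of the 8 tested genes in wild-type (blue) and AhR-deficient (red-brown) cells, with 95% intervals from edgeR; filled points passed at an adjusted p under 0.05. Lpxn showed the largest rises (1.50 and 1.84), and Tiparp and Ugt1a7c fell in wild type.

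Among the targets induced by IL-4, Lpxn (ENSMUSG00000024696.9, chromosome 19, 12796193 to 12833807, plus strand) encodes leupaxin, a focal adhesion adaptor of the paxillin family found in blood cells. Wild-type libraries had 61.5, 68.7, 75.0 and 69.4 CPM in medium and 172.2, 185.6, 226.7 and 193.7 CPM in IL-4. AhR-deficient libraries had 73.2, 63.0 and 67.9 CPM in medium and 253.1, 239.9 and 239.3 CPM in IL-4. In medium the AhR-deficient libraries lay within the wild-type range, and in IL-4 all 3 AhR-deficient libraries were above all 4 wild-type libraries.

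Lpxn rose 2.83-fold in wild type (1.50 ± 0.08, interval 1.32 to 1.68, adjusted p = 6.24e-09) and 3.59-fold in AhR-deficient cells (1.84 ± 0.10, interval 1.64 to 2.05, adjusted p = 5.75e-09). The fold within numbers was 2.70 to 3.02 in wild type and 3.46 to 3.81 in AhR-deficient cells. The difference between the responses was 0.34 ± 0.12 (interval 0.07 to 0.61), with an unadjusted p of 0.0160 and an adjusted p of 1.0; with the numbers as a block it was 0.35 ± 0.06 (unadjusted p = 2.34e-04, adjusted p = 0.171). It did not pass over all genes in either fit. The genotype difference was -0.01 ± 0.09 in medium (adjusted p = 0.946) and 0.33 ± 0.09 in IL-4 (interval 0.14 to 0.51, adjusted p = 0.0708). The latter passed without wild-type number 3 (0.41, adjusted p = 0.0238), in DESeq2 (adjusted p = 0.0117) and with the number as a random block in limma-voom (adjusted p = 0.0384), and not without wild-type numbers 1 and 2 (0.22, adjusted p = 0.353).

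Xdh (ENSMUSG00000024066.9, chromosome 17, 73883895 to 73950196, minus strand) encodes xanthine dehydrogenase, the enzyme that makes uric acid at the end of purine breakdown. Wild-type libraries had 293.0, 318.9, 312.8 and 305.4 CPM in medium and 531.4, 560.9, 643.9 and 530.4 CPM in IL-4. AhR-deficient libraries had 303.0, 320.6 and 324.6 CPM in medium and 612.4, 583.6 and 628.1 CPM in IL-4. The genotypes overlapped in each condition, while the libraries with IL-4 were all above those without. Xdh rose 1.84-fold in wild type (0.88 ± 0.06, interval 0.75 to 1.01, adjusted p = 6.32e-08) and 1.92-fold in AhR-deficient cells (0.94 ± 0.07, interval 0.79 to 1.10, adjusted p = 2.21e-07). The genotype differences, 0.04 ± 0.07 in medium and 0.10 ± 0.07 in IL-4, did not pass (adjusted p = 0.751 and 0.436), and their intervals reached 0.18 and 0.24. The 2 responses differed by 0.06 ± 0.09 (interval -0.14 to 0.26).

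Cyp1b1 (ENSMUSG00000024087.4, chromosome 17, 79701537 to 79715061, minus strand) encodes a cytochrome P450 that oxidises polycyclic aromatic hydrocarbons and oestrogens, and is a classical AhR target. It had 0, 0, 1 and 0 counts in wild type in medium and 8, 3, 8 and 10 in wild type in IL-4. In AhR-deficient cells it had 0, 0 and 0 counts in medium and 7, 8 and 3 in IL-4. The libraries with IL-4 were all above those without in each genotype, at levels far below the other 8 genes. The wild-type ratio of IL-4 to medium was 27.3, scaled for depth (29 counts against 1, exact 95% interval 4.52 to 1114, counting error only). In AhR-deficient cells, 18 counts against 0 gave a level at least 5.83-fold higher, taking 3 counts over the group as the floor, so this bound and the wild-type ratio are not on the same basis. Cyp1b1 was not part of the fit, so its difference between genotypes carries no test.

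Among the targets that fell, Tiparp (ENSMUSG00000034640.9, chromosome 3, 65528410 to 65555518, plus strand) encodes a mono-ADP-ribosyltransferase that is induced by AhR and restrains it. Wild-type libraries had 25.6, 30.6, 25.4 and 26.9 CPM in medium and 20.4, 25.3, 23.0 and 20.2 CPM in IL-4. AhR-deficient libraries had 21.1, 21.0 and 22.5 CPM in medium and 19.5, 19.6 and 19.3 CPM in IL-4. Wild type in medium was the high group, above every other library, and the AhR-deficient libraries in IL-4 were below all the rest. Tiparp fell to 0.821 times its level with IL-4 in wild type (-0.29 ± 0.08, interval -0.45 to -0.12, adjusted p = 0.00978). The change in AhR-deficient cells was -0.15 ± 0.09 (interval -0.34 to 0.05, adjusted p = 0.260), and the responses differed by 0.14 ± 0.12 (interval -0.11 to 0.39). In medium Tiparp was lower in AhR-deficient cells, at 0.795 times the wild-type level (-0.33 ± 0.08, adjusted p = 0.0315), and in IL-4 the difference was -0.19 ± 0.08 (adjusted p = 0.241). The call in medium was lost in the fits that left out wild-type number 2 or AhR-deficient number 4, 5 or 6 (adjusted p of 0.0227 to 0.144 over the 7 fits), and it was -0.34 (adjusted p = 0.0598) with the granulocyte marker score as a covariate. Of the exon bases of Tiparp, 5.12% are shared with 4931440P22Rik on the opposite strand, and the strand setting of the counting is not given in the sources used here.

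Ugt1a7c (ENSMUSG00000090124.7, chromosome 1, 88095062 to 88220002, plus strand) belongs to the UDP-glucuronosyltransferases, which attach glucuronic acid to drugs and steroids. Members of the locus share their last exons: 51.4% of the exon bases of Ugt1a7c are also annotated to Ugt1a6a and 34.2% to Ugt1a6b, so its counts are uncertain. Wild-type libraries had 79.2, 79.8, 74.9 and 70.3 CPM in medium and 67.1, 63.6, 64.0 and 64.3 CPM in IL-4. AhR-deficient libraries had 61.7, 66.6 and 69.4 CPM in medium and 62.7, 63.1 and 62.7 CPM in IL-4. As for Tiparp, wild type in medium was the high group and overlapped no other. Ugt1a7c fell to 0.851 times its level with IL-4 in wild type (-0.23 ± 0.05, interval -0.34 to -0.13, adjusted p = 0.00191) and changed by -0.07 ± 0.06 in AhR-deficient cells (adjusted p = 0.415). The difference of the responses, 0.16 ± 0.07, did not pass (unadjusted p = 0.0469, adjusted p = 1.0). In medium it was lower in AhR-deficient cells (-0.21 ± 0.05, adjusted p = 0.0332), and in IL-4 the difference was -0.04 ± 0.05 (adjusted p = 0.718). The call in medium was lost without wild-type number 1 or 2 or AhR-deficient number 4 or 5 (adjusted p of 0.0157 to 0.178 over the 7 fits), and the fall with IL-4 did not pass without wild-type numbers 1 and 2 (-0.19, adjusted p = 0.0695).

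**Figure D3:**
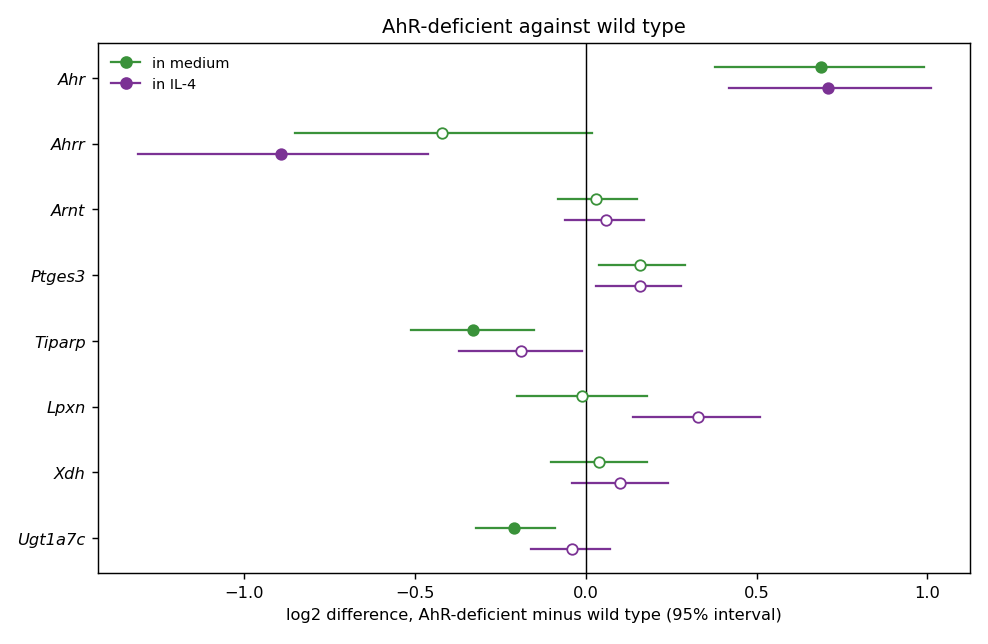
Log2 difference between AhR-deficient and wild-type libraries (horizontal axis, positive where AhR-deficient was higher) of the 8 tested genes in medium (green) and in IL-4 (purple), with 95% intervals; filled points passed at an adjusted p under 0.05. Ahr lay at 0.69 and 0.71 and Ahrr at -0.42 and -0.89. The intervals of Arnt and Xdh spanned 0 in both conditions, as did those of Ahrr and Lpxn in medium and of Ugt1a7c in IL-4.

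The genotype calls of the set were lost without wild-type numbers 1 and 2, which were high in granulocyte markers. Single libraries of either genotype had the same effect. The calls in each condition were lost without its AhR-deficient number 4 alone. Those in IL-4 were also lost without wild-type number 1, 2 or 7 or AhR-deficient number 5 alone. A score of neutrophil, eosinophil and basophil markers (mean log2 CPM) ran from 3.30 to 4.52 in wild type and 2.64 to 3.75 in AhR-deficient cells in medium. In IL-4 it ran from 3.39 to 4.65 and 2.73 to 3.79. Its genes did not move as one. Elane (34.7 against 23.2 CPM) and Mpo (46.9 against 29.3 CPM) had higher means in AhR-deficient than wild-type libraries in medium, and the other markers had lower ones. Cxcr2 went from 1.89 to 11.8 CPM with IL-4 in wild type and from 1.27 to 10.9 CPM in AhR-deficient cells. Numbers 1 and 2 were the highest in medium, at 4.52 and 4.31, and stood at 4.65 and 4.31 in IL-4, beside 4.37 for wild-type number 7. Without numbers 1 and 2, 0 of the 8 members passed in medium and 0 in IL-4, where 30 and 25 genes were called in all. The difference of Ahr was then 0.66 in medium (adjusted p = 0.166) and 0.69 in IL-4 (adjusted p = 0.218), and that of Ahrr in IL-4 was -0.68 (adjusted p = 0.302). The sizes for Ahr stayed within 0.03 of those with all libraries, and this fit rests on 2 wild-type libraries a condition. With the score as a covariate 1 member, Ahr, passed in medium, and 0 in IL-4. The part of these cells in the differences was not tested.

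**Figure D4:**
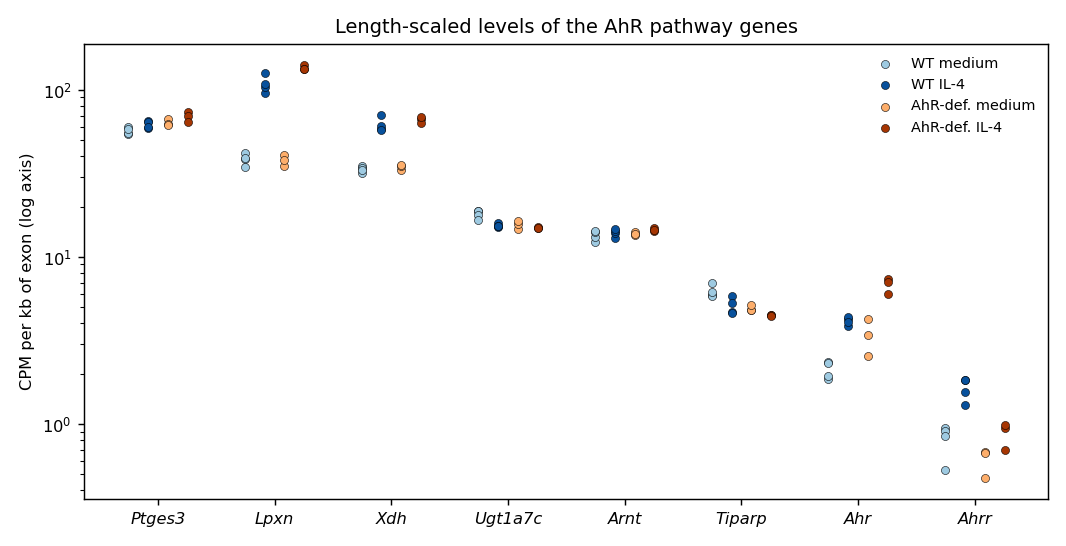
Levels of the 8 tested genes in CPM per kb of exon (vertical log axis) in every library, by group and in order of their mean in wild type in medium. Lpxn passed above Ptges3 with IL-4, and Ahr passed above Tiparp in AhR-deficient cells in IL-4.

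Levels can be set roughly between genes once divided by exon length. The length was that of the merged exons of all annotated transcripts of a gene (3 for Ahr, 14 for Xdh), and which of them were in use was not measured. The place of Ugt1a7c also rests on counts that are uncertain through its shared exons. In wild type in medium, Ptges3 stood highest, at 56.9 ± 2.26 CPM per kb, followed by Lpxn (38.3 ± 3.10) and Xdh (33.5 ± 1.21), whose libraries overlapped. Then came Ugt1a7c (18.0 ± 1.05), Arnt (13.4 ± 0.845), Tiparp (6.22 ± 0.548), Ahr (2.11 ± 0.260), Ahrr (0.808 ± 0.190) and Cyp1b1 (0.00104 ± 0.00207), each with all libraries below those of the gene before it. The receptor was thus a low transcript beside its partner and its chaperone. With IL-4, Lpxn led in wild type at 108.7 ± 13 CPM per kb, ahead of Ptges3 (62.1 ± 3.27) and Xdh (61.8 ± 5.82), which overlapped, and Ahr stood at 4.14 ± 0.227 below Tiparp at 5.10 ± 0.553. In AhR-deficient cells in IL-4 the order of those 2 was turned, with Ahr at 6.80 ± 0.719 and Tiparp at 4.47 ± 0.0285 CPM per kb, and no overlap.

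Of the classical xenobiotic targets outside the set, Cyp1a1, Cyp1a2 and Aldh3a1 were almost silent. Cyp1a1, the P450 used as the standard readout of AhR activity, had 1 count in wild type in medium, 0 in wild type in IL-4, 0 in AhR-deficient in medium and 2 in AhR-deficient in IL-4, summed over the libraries of each group. Cyp1a2 had 0 counts in all 14 libraries, and the aldehyde dehydrogenase Aldh3a1 had 1 count in wild type in medium and 1 in AhR-deficient in IL-4. Nqo1, a quinone reductase driven by AhR and NRF2, had 1.14 ± 0.239 CPM without AhR deficiency and 2.12 ± 0.546 CPM with it in medium (0.89 ± 0.22, adjusted p = 0.0302). It fell with IL-4 to 0.646 ± 0.106 CPM and 0.833 ± 0.0310 CPM, respectively (adjusted p = 0.00940 and 7.82e-04).

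Of a list of 21 other genes known as AhR targets, 12 were tested, and they moved in either direction. In wild type 4 rose with IL-4 while 5 fell (median -0.10), and in AhR-deficient cells 3 rose and 4 fell (median -0.06). Of all genes tested, 19.4% rose and 16.5% fell in wild type, and 15.4% rose and 14.2% fell in AhR-deficient cells. With the numbers as a block, 5 of the 12 rose and 5 fell in each genotype. The shares above are of the fit without the block, so they are no measure for the counts with it. Il10, an anti-inflammatory cytokine, fell by 2.02 ± 0.58 on the log2 scale in wild type and by 1.78 ± 0.53 in AhR-deficient cells (adjusted p = 0.0135 and 0.0201). Its counts were low, at 51 without and 13 with IL-4 summed over the wild-type libraries, and 108 and 32 over the AhR-deficient ones. Nfe2l2, which encodes the oxidant-response factor NRF2, fell by 1.37 ± 0.19 and 1.30 ± 0.21 (adjusted p = 4.93e-05 and 3.42e-04), and Ugt1a6a, which shares exons with Ugt1a7c, fell by 1.20 ± 0.15 and 0.71 ± 0.18 (adjusted p = 3.15e-05 and 0.00689). Those 3 genes fell while Socs2, a feedback inhibitor of cytokine receptors, rose by 2.03 ± 0.40 and 1.78 ± 0.44 (adjusted p = 0.00129 and 0.00699). Socs2 was also low, with 64 and 278 counts summed over wild-type libraries without and with IL-4, and 80 and 281 over AhR-deficient ones.

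Between genotypes, 3 of the 12 were higher and 1 was lower in AhR-deficient cells in medium, and 1 was higher in IL-4 (medians 0.24 and 0.32), where 8.11% and 1.62% of all genes were called. Stc2, which encodes the secreted glycoprotein stanniocalcin 2, was the 1 called in all 4 comparisons. It too was low, with 19 and 112 counts summed over wild-type libraries without and with IL-4, and 60 and 331 over AhR-deficient ones. In medium, wild-type libraries averaged 0.126 ± 0.0474 CPM and AhR-deficient libraries 0.538 ± 0.178 CPM (2.05 ± 0.39, adjusted p = 0.0115). With IL-4 the averages were 0.709 ± 0.270 and 2.91 ± 0.342 CPM (2.03 ± 0.30, adjusted p = 0.00630). Cdkn1b, the cell cycle inhibitor p27, was lower in AhR-deficient cells in medium, at 108.1 ± 6.76 against 144.7 ± 15 CPM (-0.42 ± 0.08, adjusted p = 0.0120). Slc7a5, a large neutral amino acid transporter, was higher there, at 405.8 ± 39.0 against 306.6 ± 34.7 CPM (0.40 ± 0.10, adjusted p = 0.0308).

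**Figure D5:**
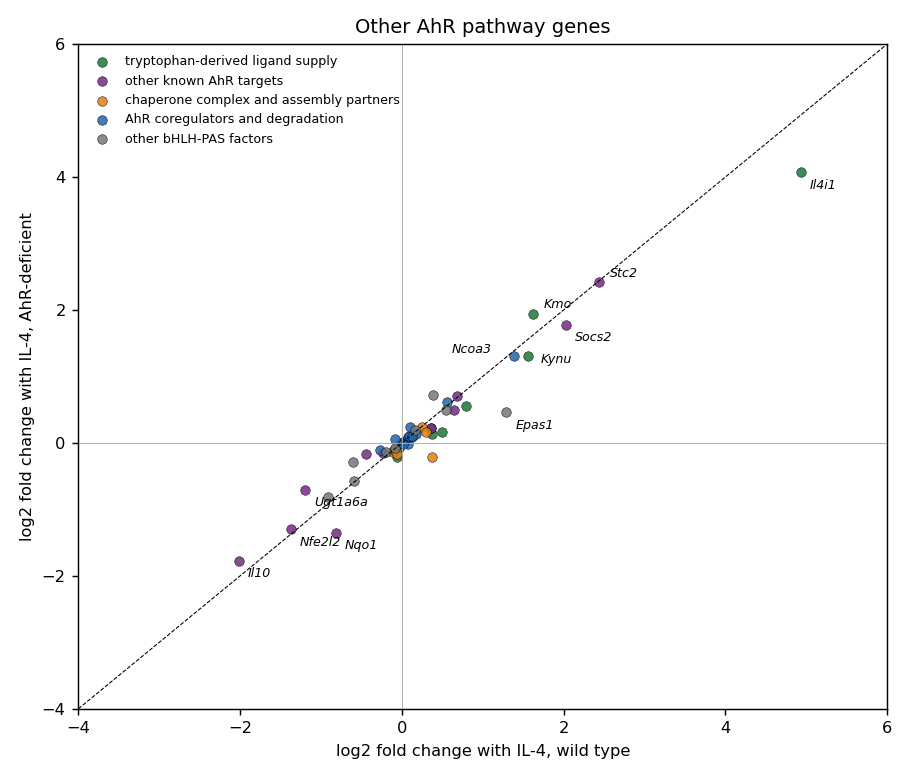
Log2 fold change with IL-4 in wild type (horizontal axis) and in AhR-deficient cells (vertical axis) of the tested genes of 5 lists around AhR, coloured by list, with the line of equal change dashed and genes past 1.1 in either direction named. Il4i1 lay farthest out, at 4.93 and 4.07, and Il10, with 13 to 108 counts summed per group, lay lowest, at -2.02 and -1.78.

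Tryptophan metabolism and transport make some AhR ligands and use up others. Of 13 listed genes of these steps, 9 were tested; 5 rose and none fell with IL-4 in wild type (median 0.49; 19.4% of all genes rose and 16.5% fell), and 3 rose, 1 fell and 5 did not pass in AhR-deficient cells (median 0.23; 15.4% and 14.2% of all genes). Il4i1, a secreted amino acid oxidase whose products from tryptophan activate AhR, went from 17.6 ± 7.11 to 535.2 ± 77.0 CPM in wild type (4.93 ± 0.31, adjusted p = 2.56e-08) and from 30.5 ± 13 to 510.6 ± 57.5 CPM in AhR-deficient cells (4.07 ± 0.34, adjusted p = 7.68e-07). Its response differed between genotypes by -0.86 ± 0.41, which did not pass (adjusted p = 1.0). Kynu and Kmo, which encode enzymes that consume kynurenine, also rose. Kynu, kynureninase, rose by 1.56 ± 0.17 and 1.31 ± 0.19 (adjusted p = 5.40e-06 and 1.19e-04), and Kmo, kynurenine monooxygenase, by 1.62 ± 0.08 and 1.94 ± 0.10 (adjusted p = 3.36e-09 and 4.33e-09). Ido1, the entry enzyme of that pathway, was too low to be tested, with 9 to 33 counts summed per group. Slc3a2, the partner chain of Slc7a5, was higher in AhR-deficient cells in medium (0.55 ± 0.06, adjusted p = 6.49e-04) and in IL-4 (0.39 ± 0.06, adjusted p = 0.0138), and fell with IL-4 in AhR-deficient cells (-0.22 ± 0.07, adjusted p = 0.0305).

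Of 6 genes of the chaperone complex, 2 rose with IL-4 in each genotype, Hsp90aa1 and Stip1, and 1, Cdc37, fell in AhR-deficient cells (medians 0.10 and -0.12; with the numbers as a block 1 fell in wild type and 2 in AhR-deficient cells). In the fit without the block, the share of all genes called was 35.9% in wild type and 29.5% in AhR-deficient cells. Hsp90aa1, the inducible HSP90, rose by 0.25 ± 0.05 and 0.24 ± 0.06 (adjusted p = 0.00167 and 0.00611). Stip1, which links HSP70 to HSP90, rose by 0.30 ± 0.05 and 0.17 ± 0.05 (adjusted p = 1.78e-04 and 0.0309), and was higher in AhR-deficient cells in medium (0.22 ± 0.05, adjusted p = 0.0223).

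Of 13 coregulators and degradation factors, 5 rose and 1 fell with IL-4 in wild type. In AhR-deficient cells 4 rose, with a median of 0.09 in each genotype. Of all genes, 35.9% and 29.5% were called for IL-4. None of the 13 passed between genotypes, where 8.11% of all genes were called in medium and 1.62% in IL-4. Ncoa3, a p160 coactivator, rose by 1.38 ± 0.07 and 1.30 ± 0.09 (adjusted p = 4.99e-09 and 6.29e-08). Of 16 other bHLH-PAS genes, 9 were tested; 2 rose and 3 fell in wild type (35.9% of all genes called). In AhR-deficient cells 1 rose, 1 fell and 7 did not pass (29.5% of all genes called), with a median of -0.08 in each genotype. Hif1a, the hypoxia factor that also uses ARNT, fell by 0.59 ± 0.15 and 0.58 ± 0.17 (adjusted p = 0.00747 and 0.0212). Epas1, its relative HIF2A, rose in wild type by 1.29 ± 0.25 (adjusted p = 0.00115) and changed by 0.46 ± 0.29 in AhR-deficient cells (adjusted p = 0.267), a difference of responses that did not pass (-0.83 ± 0.38, adjusted p = 1.0). Per1, a clock repressor, rose by 0.39 ± 0.07 and 0.72 ± 0.08 (adjusted p = 6.48e-04 and 1.50e-05) and was lower in AhR-deficient cells in medium (-0.33 ± 0.08, adjusted p = 0.0238).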

How the data were processed

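Polyadenylated RNA of mouse bone marrow monocytes (flow cytometry purity of 90 to 95%, per the labels) was sequenced as paired 100-nt reads from stranded libraries. The authors deposited raw counts per gene, not normalized, for 14 libraries of 33432502 to 42885079 counts. FastQC, STAR and mm10 are named in the submitters' processing notes. The counting program, annotation and strand setting were not given in the sources used here. Symbols, positions and exon lengths came from GENCODE M21 (GRCm38), which held 55394 of the 55487 identifiers, and promoter sequences from the RefSeq table of GRCm38.p6.

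The tests used edgeR 4.0.16 in R 4.3.3. The 14754 genes that passed filterByExpr were scaled by TMM and fitted with 1 mean per group over all 14 libraries by the quasi-likelihood F-test, with Benjamini-Hochberg adjustment over all of them. SE is the log2 fold change divided by the square root of F. Steps were tested on simulated counts. Alternatives were DESeq2 1.42.0 (as scaling and as test), limma 3.58.1 with voom and the number as a random block, no filter, 1 CPM in 3 libraries, only the groups compared, autosomal genes only, a fixed block of numbers, leaving out each library, leaving out wild-type numbers 1 and 2, and a granulocyte score as covariate. After removal of group means, libraries sharing a number correlated (r from 0.181 to 0.703), and all 7 of 7 pairs were each other's best match, so the numbers pair the libraries. No number occurs in both genotypes.

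The 9 genes, the lists around them, the alternatives and the rule for naming genes were chosen with earlier results of these data known. The rule named the 9 genes, Cyp1a1, Cyp1a2, Nqo1 and Aldh3a1, up to 4 genes with the smallest adjusted p of each list and others at issue in a count, 3 genes most like Ahr and Ahrr in log2 CPM (mean of at least 1), and 5 tested neighbours of Ahr a side. The Ahrr to Ahr ratio, and Il10, Nfe2l2, Ugt1a6a, Socs2, Cdkn1b, Slc7a5, and Ido1 as examples, were picked after their values were seen. A planned comparison of protein sequences was not made, and a few single-gene results that the rule reached are left out of the text.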

Additional observations from a re-analysis of the deposited data

How the results depend on the processing

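The IL-4 responses kept their counts of calls within 1.5 times over all alternatives: 5 to 7 members in wild type and 3 to 4 in AhR-deficient cells. The direction of Ahr, Ahrr, Lpxn and Xdh with IL-4 was the same in every fit of either genotype. Over all member fits, 729 of 792 kept direction and call, 33 lost a call, 9 gained one and 21 changed sign. This total includes comparisons without a call in the main fit, which could not lose one. The lost calls were those between genotypes, except 1 loss for the fall of Ugt1a7c with IL-4 in wild type. Of 18 fits each, Ahr lost its call in 3 in medium and 7 in IL-4, Ahrr in 8 in IL-4, and Tiparp and Ugt1a7c in 7 each in medium.

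The genotype counts depended on the processing, and the causes were not tested. In medium, 1197 genes were called, against 1990 with DESeq2, 59 with only the groups compared, 30 without wild-type numbers 1 and 2, 526 with the granulocyte score and 95 to 1716 without 1 library each. The 3 members called there became 0 with only the groups compared, 0 without wild-type numbers 1 and 2, 1 with the granulocyte score and 0 to 3 without 1 library each. In IL-4, 239 genes were called, against 802 with DESeq2, 361 with no filter, 523 with only the groups compared, 420 with the random block, 25 without wild-type numbers 1 and 2, 36 with the score and 24 to 315 without 1 library each. The 2 members called there became 0 without wild-type numbers 1 and 2, 0 with the score and 0 to 3 without 1 library each. For the interaction, DESeq2 called 3 genes and edgeR 0, also in each fit without 1 library. With only the groups compared, Ahr, Tiparp and Ugt1a7c in medium had an adjusted p of 0.0881, 0.0747 and 0.123.

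The fixed block of numbers gave Ptges3 in wild type (adjusted p = 0.0375) and Ahrr in AhR-deficient cells (adjusted p = 0.0138) and changed no other call of the 8 tested members. Signs changed only for differences near 0. The interaction of Ptges3 (0.00) was 0.01 with DESeq2 size factors, 0.01 with DESeq2, 0.02 with no filter, 0.01 with the 1 CPM filter, 0.06 without wild-type numbers 1 and 2, and -0.05 to 0.05 without 1 library. The difference in medium of Arnt was -0.04 without wild-type numbers 1 and 2 (-0.01 to 0.06 without 1 library), that of Xdh -0.01 with the score, and that of Lpxn -0.07 to 0.04 without 1 library. Without 1 library the interactions of Ahr and Arnt were -0.13 to 0.22 and 0.00 to 0.07. Counts were too few for a test of Cyp1b1, Cyp1a1, Cyp1a2 and Aldh3a1.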
